A study of Oryza sativa with 6 samples.

Results

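The genes described here are 9 rice aquaporins that sit in internal membranes of the cell. They are 7 tonoplast intrinsic proteins (TIPs), the aquaporins of the vacuolar membrane, and 2 small basic intrinsic proteins (SIPs). The members were taken by their identifiers from the 36844 genes of the count table. They are Os03g0146100 (TIP1;1), Os01g0975900 (TIP1;2), Os02g0658100 (TIP2;1), Os06g0336200 (TIP2;2), Os05g0231700 (TIP4;1), Os01g0232000 (TIP4;2), Os01g0232100 (TIP4;3), Os01g0182200 (SIP1;1) and Os03g0320000 (SIP2;1). Roots of the cultivars 9311 and Huanghuazhan (HHZ), both grown hydroponically, were sequenced with 3 libraries per cultivar, to look for features behind the stronger early growth of 9311. All plants, of either cultivar, spent 2 days without NH4NO3 from 50 days after germination (DAG) and were then returned for 3 h to the normal solution with 1 mM NH4NO3. Roots without this treatment were not analysed here, so the values describe roots shortly after nitrogen resupply.

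Aquaporins are channels that let water, and in some cases small uncharged solutes, pass through a membrane along its gradient. TIPs are commonly the most abundant proteins of the plant vacuolar membrane, where they allow fast exchange of water between the cytosol and the vacuole as root cells expand or adjust their turgor. In Arabidopsis, some TIP2 proteins also conduct ammonia, and some TIPs of the groups 1, 2 and 4 conduct urea. SIPs are a small and divergent branch, which in Arabidopsis is found in the endoplasmic reticulum.

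Values are given as CPM, the reads counted on a gene relative to the size of the library after scaling by edgeR's TMM method. CPM is not corrected for gene length, so levels were compared between libraries and not between genes. The total counts lay between 16622441 and 22324192 in 9311 and between 21273125 and 22646162 in HHZ. HHZ replicate 3 stood farthest from its own cultivar, at a mean root mean square distance of 0.764 on the log2 scale, against 0.463 to 0.593 for the other 5 libraries. It is not stated whether the replicates were separate containers or harvests, so the tests measure only the spread between these libraries. The label of the tissue was not checked against marker genes, because identifiers other than those of the members could not be paired with gene names here. Each library is a whole root sample, in which a smaller share of a cell type and less RNA per cell cannot be told apart.

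None of the tested TIP and SIP genes passed the threshold between the cultivars in edgeR. Of the 9 members, 8 had enough counts to be tested. The quasi-likelihood test of edgeR called 0 of these 8 (threshold 0.05 on the adjusted p-value), against 6.51% of all 22554 genes tested. It also called 0 at an adjusted p-value under 0.01 or under 0.1, where 2.82% and 10.1% of all genes were called. With an unadjusted p-value under 0.05 there was 1 member in edgeR, TIP4;1, which was lower in 9311, against 21% of all genes tested, so the members did not exceed the background. In DESeq2 there were 2 (TIP4;1 and TIP2;1), against 21.1% of the genes with an adjusted p-value. DESeq2 called TIP4;1 alone after adjustment, where its background was 11.2% of the same genes, and limma-voom called 0, against 6.59%. All libraries of one cultivar lay above all of the other for 2 of the 8 genes, TIP4;1 and SIP2;1, against 27.2% of all genes tested. Fitted levels were higher in 9311 for 5 genes and higher in HHZ for 3. The median log2 fold change of 9311 over HHZ was 0.21 for the 8 members and -0.01 for all genes tested, and the median size of the change was 0.34 and 0.26 on the same scale.

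**Figure D1:**
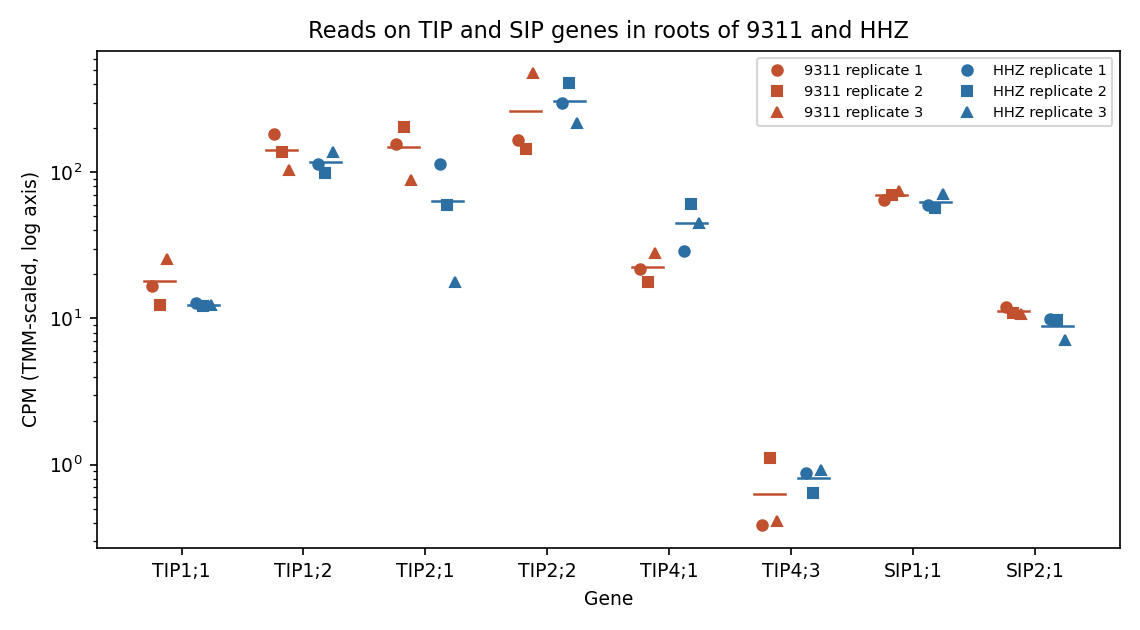
Reads of 8 aquaporin genes in every library, in CPM after TMM scaling on a log axis, with 9311 left of HHZ for each gene. Points are libraries (circle, square and triangle for replicates 1, 2 and 3) and short lines are means of 3. By the SD of log2 CPM within a cultivar, pooled over both, the TIP2 genes spread most and the SIP genes least, whereas within HHZ TIP1;1 is the tightest. Os01g0232000, with at most 4 counts in any library, is not drawn.

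The TIP1 group holds the genes of typical water channels of the vacuolar membrane. TIP1;1 had 16.6, 12.4 and 25.4 CPM in 9311 replicates 1, 2 and 3, and 12.7, 12.1 and 12.3 CPM in HHZ replicates 1, 2 and 3. In 9311, replicate 3 was 2.05 times replicate 2, which lay within the narrow range of the HHZ libraries. The log2 fold change was 0.55 (standard error 0.26, 95% interval -0.07 to 1.17, adjusted p = 0.289 in edgeR). Without 9311 replicate 3 it was 0.23, so much of the estimate came from this library, and without 9311 replicate 2 it was 0.76. TIP1;2 was counted at 182, 137 and 103 CPM in 9311 and at 115, 98.6 and 138 CPM in HHZ. Its cultivars overlapped broadly, with replicate 3 the lowest of the 9311 libraries and the highest of the HHZ libraries. Its log2 fold change was 0.27 (standard error 0.23, 95% interval -0.29 to 0.82, adjusted p = 0.572 in edgeR), and it ran from 0.03 without 9311 replicate 1 to 0.45 without 9311 replicate 3. These intervals leave room for a level in 9311 up to 2.25 times that in HHZ for the first gene and up to 1.77 times for the second.

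The TIP2 genes had the largest spread within a cultivar among the 8 tested genes, as the SD of log2 CPM pooled over both cultivars. TIP2;1, known as a TIP of rice roots, had 157, 204 and 88.3 CPM in 9311, against 114, 60.2 and 17.8 CPM in HHZ. Replicate 3 was the lowest library of each cultivar, and 9311 replicate 3 lay below HHZ replicate 1, so the cultivars overlapped by this library. The highest 9311 library was 2.31 times the lowest, and the highest HHZ library 6.38 times the lowest. The fitted level was 2.34 times higher in 9311, the largest difference among the 8 genes, at a log2 fold change of 1.23 with a standard error of 0.64. It did not pass the test (adjusted p = 0.333 in edgeR), and its 95% interval on the log2 scale, from -0.30 to 2.76, holds both no difference and a difference of up to 6.79 times. Without HHZ replicate 3, its lowest library, the log2 fold change was 0.77 (adjusted p = 0.269 in edgeR), and without HHZ replicate 1, the highest of that cultivar, it was 1.94 (standard error 0.61, adjusted p = 0.182 in edgeR).

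TIP2;2 took most reads of the 9 genes on average, with 166, 144 and 475 CPM in 9311 and 299.8, 411 and 216 CPM in HHZ. The highest and the lowest of the 6 libraries were both from 9311. Replicates 1 and 2 of 9311 lay below every HHZ library, and replicate 3 lay above every one. Over all libraries the log2 fold change was -0.24 (standard error 0.50, 95% interval -1.43 to 0.95, adjusted p = 0.827 in edgeR). It was -0.99 without 9311 replicate 3 (adjusted p = 0.138 in edgeR), and it lay just above 0 without 9311 replicate 2 (0.05) or without HHZ replicate 2 (0.02). With the replicate 3 libraries of both cultivars left out, a choice made after the values were seen, it was -1.19 (standard error 0.19, adjusted p = 0.0129 in edgeR), and it was the only member called. In that fit 16.2% of all genes tested were called. For this gene replicate 3 was the highest library of 9311 but the lowest of HHZ, and the reason was not tested.

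**Figure D2:**
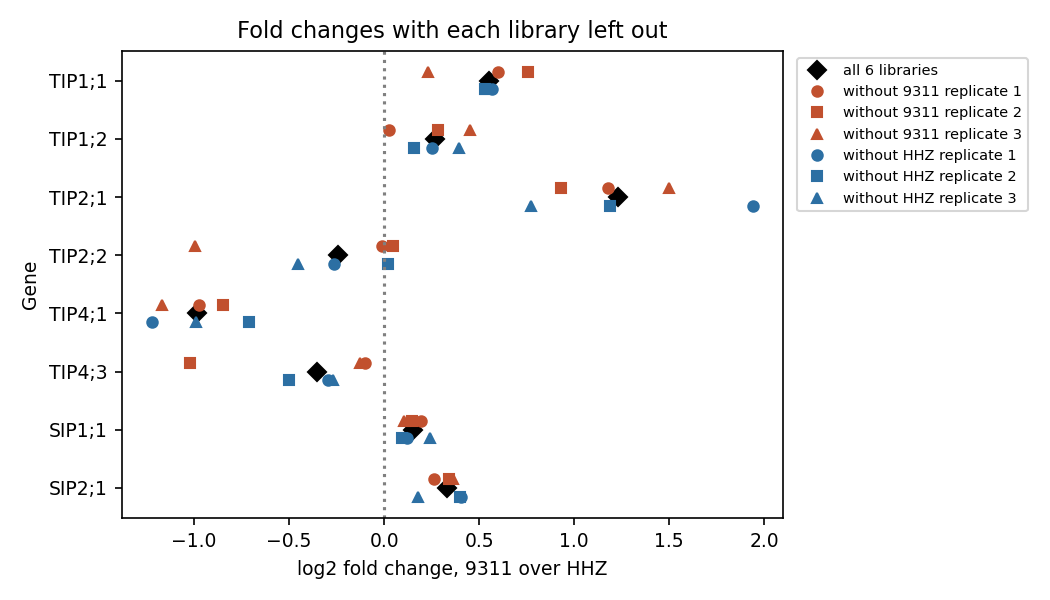
Log2 fold change of 9311 over HHZ for the 8 tested genes, with all 6 libraries (black diamonds) and with each library left out (orange for 9311 and blue for HHZ). The estimate of TIP2;2 ran from -0.99 to 0.05, whereas those of TIP4;1 all lay at or below -0.71.

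Because the counts of both TIP2 genes come from the same library, their ratio does not depend on depth or scaling. The reads of TIP2;2 per read of TIP2;1 numbered 1.06, 0.704 and 5.38 in 9311 and 2.64, 6.83 and 12.2 in HHZ. The 2 lowest ratios were those of 9311 replicates 1 and 2, and the highest was that of HHZ replicate 3. Replicate 3 had the highest ratio in each cultivar. In 9311 it stood apart from replicates 1 and 2, whereas in HHZ the ratios rose stepwise from replicate 1 to replicate 3. The ratio also holds the lengths of the transcripts, so only its change between libraries can be read.

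Fitted levels of both tested TIP4 genes were lower in 9311, without a call in edgeR. TIP4;1 had 21.9, 17.9 and 28.1 CPM in 9311 and 28.7, 60.2 and 45.2 CPM in HHZ. Every 9311 library lay below every HHZ library, but 9311 replicate 3 and HHZ replicate 1 were nearly equal. The mean was 22.6 ± 5.13 CPM in 9311 and 44.7 ± 15.8 CPM in HHZ (SD, n = 3 each). The log2 fold change of -0.98 had a standard error of 0.30 and a 95% interval of -1.70 to -0.27, which on its own does not include 0. After adjustment over all genes the p-value was 0.119 in edgeR (unadjusted p = 0.0141), and in DESeq2 the adjusted p-value was 0.0297. Leaving out any one library kept the gene lower in 9311 and uncalled, with a log2 fold change between -1.22 and -0.71 and an adjusted p-value between 0.0530 and 0.325 in edgeR. An exact permutation test of 3 libraries against 3 could not give p below 0.1 for any of these genes.

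The other two TIP4 genes were barely counted. They lie 2 rows apart on chromosome 1 in the count table, with 1 uncounted row between them. TIP4;2 had 0, 1 and 0 counts in 9311 and 4, 0 and 3 counts in HHZ, where 3 counts, the limit that a count of 0 allows, correspond to 0.144 to 0.175 CPM in 9311 and 0.128 to 0.138 CPM in HHZ. These limits cover counting error only. It did not pass the filter on low counts, and a difference between the cultivars was not detectable at this depth. TIP4;3 had 8, 21 and 7 counts in 9311 and 20, 15 and 20 in HHZ, that is, 0.385, 1.10 and 0.409 CPM in 9311 and 0.873, 0.638 and 0.920 CPM in HHZ. The libraries of 9311 held both the highest and the lowest values. Its log2 fold change was -0.35 (standard error 0.49, 95% interval -1.53 to 0.83, adjusted p = 0.735 in edgeR), and it ran from -1.02 without 9311 replicate 2, its highest library, to -0.10 without 9311 replicate 1. Reads of such neighbouring genes of one family may be shared between them or lost if their sequences are near-identical, which was not tested.

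**Figure D3:**
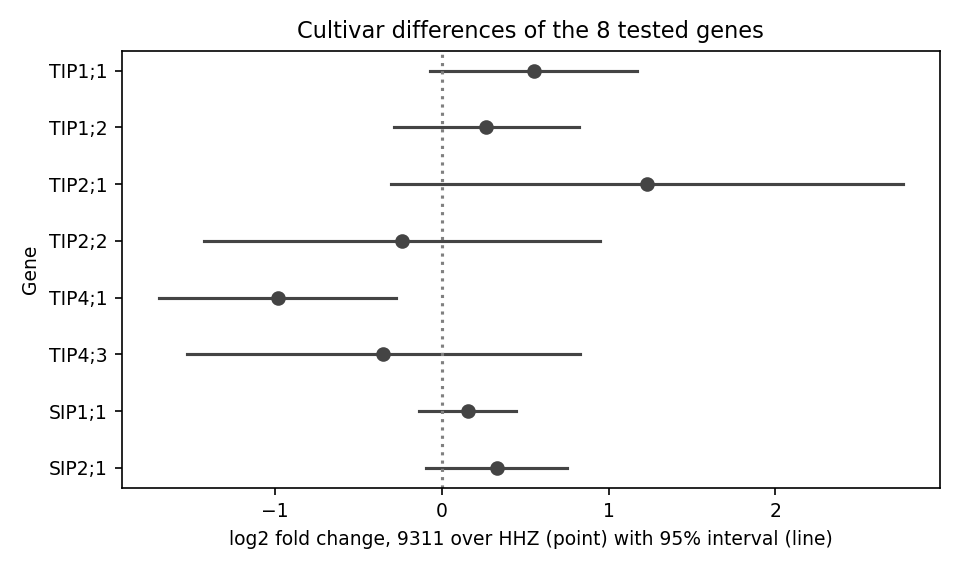
Log2 fold change of 9311 over HHZ for the 8 tested genes (points) with 95% intervals from edgeR's quasi-likelihood fit (lines). The interval of TIP4;1, -1.70 to -0.27, is the only one that leaves out 0.

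The SIP genes had the smallest spread of the 8 tested genes when the SD of log2 CPM was pooled over both cultivars. Within HHZ alone TIP1;1 varied less, with a coefficient of variation of 2.51%, against 11.6% for SIP1;1 and 17.5% for SIP2;1. SIP1;1 had 64.5, 69.7 and 74.6 CPM in 9311 and 59.3, 57.4 and 70.9 CPM in HHZ. Only HHZ replicate 3 reached into the range of 9311. The log2 fold change was 0.15 (standard error 0.12, 95% interval -0.14 to 0.44, adjusted p = 0.528 in edgeR), so a difference above 1.36 times lies outside the interval in this fit. With single libraries left out it ran from 0.10 (without HHZ replicate 2) to 0.24 (without HHZ replicate 3). For SIP2;1 the values were 12.0, 10.9 and 10.7 CPM in 9311 and 9.86, 9.79 and 7.13 CPM in HHZ. All 9311 libraries lay above all HHZ libraries, with the largest gap to HHZ replicate 3. The log2 fold change of 0.33 (standard error 0.18, 95% interval -0.09 to 0.75) did not pass the test, with an adjusted p of 0.347 in edgeR, and it ran from 0.18 without HHZ replicate 3 to 0.41 without HHZ replicate 1.

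The spread between libraries differed among the members. As the SD of log2 CPM within a cultivar, pooled over both, it was 1.04 for TIP2;1 and 0.74 for TIP2;2, above 97.5% and 93.9% of all genes tested. Among genes with a mean CPM within 0.5 of their own on the log2 scale, the median SD was 0.17 and 0.18, well below that of the TIP2 genes. The TIP1 genes (SD 0.36 and 0.34) lay above 76.8% and 79.7% of the genes of like abundance, and TIP4;1 (SD 0.44) lay above 86.1%. Os01g0232100, with its few counts, had an SD of 0.36, above 57.6% of the genes as low as it. Its values, 0.385 to 1.10 CPM, are close in size to the 0.5 added before the log. This offset lowers its SD, which is therefore not comparable with those of the more abundant members. The SIP genes, at 0.14 for Os01g0182200 and 0.19 for Os03g0320000, lay above 40.5% and 35.1% of theirs. Apart from Os01g0232100, the standard errors of the fold changes fall in the same order as these spreads.

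Together, reads on the 7 TIP genes summed to 544, 516 and 721 CPM in 9311 and to 570.4, 642 and 431 CPM in HHZ. The highest sum was that of 9311 replicate 3 and the lowest that of HHZ replicate 3, and the other 4 libraries lay between 516 and 642 CPM. The mean was 594 ± 111 CPM in 9311 and 548 ± 107 CPM in HHZ (SD, n = 3 each), which is within the spread of either cultivar, and the order turned to 574 and 578 CPM with library totals as the only scaling and to 530.2 and 606 CPM without both replicate 3 libraries. The 2 SIP genes summed to 76.6, 80.7 and 85.3 CPM in 9311 and to 69.2, 67.2 and 78.0 CPM in HHZ, a range of 1.27 times over all libraries.

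The division of these reads among the TIP genes varied between libraries. TIP2;2 gave 30.5%, 27.8% and 65.9% of the TIP reads in 9311 and 52.6%, 63.9% and 50.2% in HHZ. For TIP2;1 the shares were 28.8%, 39.5% and 12.2% in 9311 and 19.9%, 9.37% and 4.13% in HHZ. Replicates 1 and 2 of 9311 had the highest shares of this gene, and all HHZ libraries were below 20%. TIP1;2 gave 33.5%, 26.6% and 14.4% in 9311 and 20.1%, 15.4% and 32.1% in HHZ, with its low values where Os06g0336200 was high. TIP4;1 was at 4.03%, 3.46% and 3.89% in 9311 and at 5.03%, 9.38% and 10.5% in HHZ. Its cultivars did not overlap in this share, but the share comes from the same counts as its CPM and is not separate evidence. A background over other genes was not computed for it. As these are shares of reads, longer transcripts weigh more in them. Because they are also shares of the same total, a rise of TIP2;2 by itself lowers those of the other genes.

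**Figure D4:**
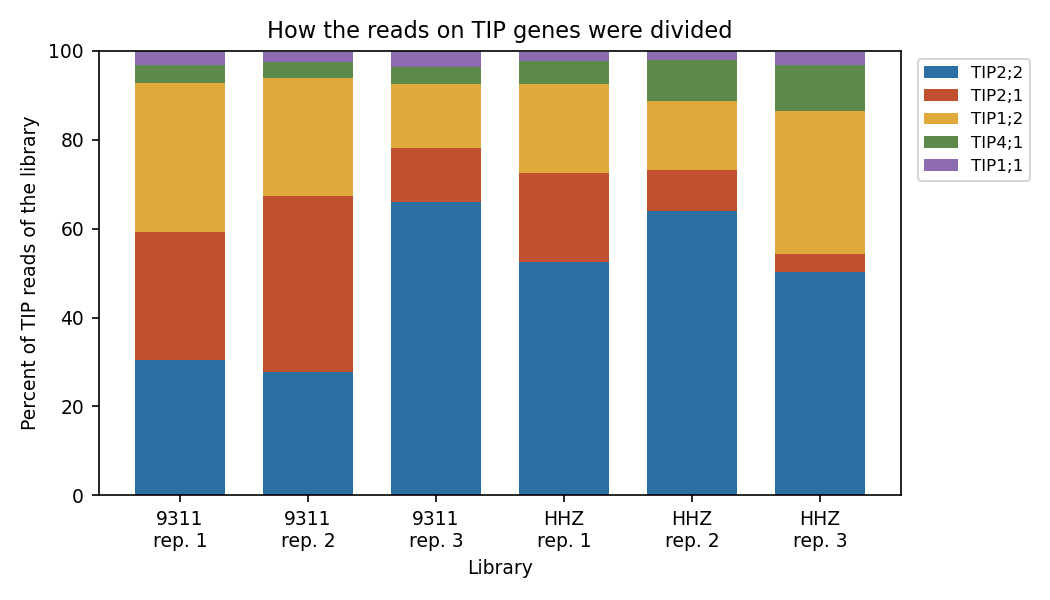
Share of the reads on the TIP genes taken by each gene, in percent, for the 3 libraries of 9311 and the 3 of HHZ. TIP2;2 (bottom) reaches 65.9% in 9311 replicate 3, against 30.5% and 27.8% in the other 9311 libraries. The shares of Os01g0232000 and Os01g0232100 are too small to draw.

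Across the 6 libraries, 28 pairs of members could be compared in log2 CPM, as a description in which the libraries share the cultivar and the state of the plants. The closest pair was TIP2;1 with SIP2;1 (Pearson's r 0.93, Spearman's rho 0.89, and 0.87 for Pearson's r after each cultivar's mean was taken out). TIP1;2 ran opposite to TIP2;2 (r -0.86, rho -0.77, within cultivars -0.85). TIP2;1 ran opposite to TIP4;1 (r -0.78, rho -0.89), less so within cultivars (-0.57). For the pair of SIP genes r was -0.11 over all libraries (rho 0.09) and -0.95 within cultivars. These 6 points per gene include HHZ replicate 3, the lowest library for Os02g0658100 and for Os03g0320000.

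Of 9436 other genes with a mean of at least 20 CPM, the 3 whose log2 CPM followed Os06g0336200 (TIP2;2) most closely over the 6 libraries were Os08g0504400 (r 0.99), Os04g0692000 (r 0.99) and Os06g0726400 (r 0.99). Each ranked the libraries in the same order as the aquaporin (rho 1). As these genes were chosen for the highest r over only 6 libraries, this closeness largely follows from the choice. Os08g0504400 was at 23.2, 22.3 and 32.4 CPM in 9311 and 28.3, 29.8 and 25.0 CPM in HHZ, a far narrower range. None of these genes was called between the cultivars, with adjusted p-values from 0.689 to 0.886 in edgeR, and 35 of the 9436 genes had r above 0.95, so the match is not particular to the 3 named.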

How the data were processed

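The authors trimmed adaptors and used STAR for alignment, with IRGSP-1.0 and an annotation of Ensembl Plants as the reference. Deposited were the raw gene counts that STAR gives, 1 column per library, not normalized and not pooled. The submitters' processing notes give STAR 2.5.3a, and the paper's methods name another release. The strand setting is not given in the sources used here, so counts of overlapping genes are uncertain. Both cultivars were aligned to the genome of Nipponbare, a japonica cultivar, so reads from diverged genes may be lost.

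Counts of all 36844 genes were analysed with edgeR 4.0.16 in R 4.3.3, with 9311 set over HHZ (TMM factors between 0.919 and 1.10, filterByExpr with a minimum count of 10, quasi-likelihood test with cultivar as the only term, Benjamini-Hochberg adjustment over all genes tested, threshold 0.05). The standard error was the size of the log2 fold change over the square root of F, and the 95% interval used the t distribution with the degrees of freedom of the fit (6.57 for the members). Correlations and spreads used log2(CPM + 0.5). DESeq2 1.42.0, limma-voom (limma 3.58.1), other scalings, filters and thresholds, replicate blocks and left-out libraries were alternatives. Between replicates of a cultivar the chi-square over genes was 23.3 to 104 per degree of freedom, so they differed by more than counting error. Whether they came from separate plants cannot be told from this.

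The rule for the members names genes and uses no measured value, but the members and lists were chosen with earlier results of these data known. All 9 members are named, as are the 3 genes with at least 20 CPM most correlated with the TIP of the highest mean CPM. Of the 9 member names, 8 were found in the RefSeq gene table (ASM3414082v1), each on the chromosome given in its identifier. The name not found was TIP4;3. The matches rest on name and chromosome, not on the identifier. As this table holds 1 of the identifiers, names of other aquaporins could not be paired with counts, and no sequence, length or coordinate was used.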

Additional observations from a re-analysis of the deposited data

How the results depend on the processing

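The number of aquaporins called, 0 of the 8 tested, was also 0 in limma-voom, with robust dispersion, under each other scaling and filter, at adjusted p under 0.01 or 0.1, and without any one library (0 in each). The share of all genes called was 6.51% in edgeR, 6.42% to 6.59% in limma-voom, with robust dispersion and under the other scalings, 4.95% with no filter, 2.8% with the strictest filter, and from 3.32% (without HHZ replicate 2) to 11.9% (without HHZ replicate 3) with 1 library left out. DESeq2 called 1 (TIP4;1, higher in HHZ, log2 fold change -0.98), where 11.2% of all genes with an adjusted p-value were called. The fit without both replicate 3 libraries, added after the data were seen, called 1 (TIP2;2, higher in HHZ, -1.19). In that fit 16.2% of all genes tested were called. The cause was not tested. Of 127 comparisons of a member's fold change with an alternative, 123 kept direction and side of the threshold, 2 became called (those above) and 2 reversed, both for TIP2;2, to 0.0455 without 9311 replicate 2 and 0.0183 without HHZ replicate 2. With library totals only, the median of all genes shifted to -0.13, and every member kept its direction. TIP4;3 was dropped by the strictest filter (minimum of 10 counts per library). The deviations of libraries 1, 2 and 3 from their cultivar means correlated between the cultivars at -0.135, 0.0733 and -0.154, so no pairing by replicate number was seen. These values cannot decide whether containers or harvests were shared, because HHZ replicate 3 weighs heavily on the HHZ mean. With the replicate block 0 members were called, against 470 of all genes (2.08%). With 3 libraries per cultivar and the spread seen here, changes of TIP2;1 or TIP2;2 of the fitted size could not be told from no change.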
